A study of Mus musculus with 18 samples.

Results

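The TGF-beta ligands, their receptors and the proteins that hold or release them were followed as 9 genes through single-cell RNA-Seq of murine bone marrow (BM). The genes were chosen by name: the ligands Tgfb1, Tgfb2 and Tgfb3, the receptors Tgfbr1, Tgfbr2 and Tgfbr3, the latent TGF-beta binding proteins Ltbp1 and Ltbp3, and Thbs1. All 9 are among the 20275 genes of the deposited count matrix, which holds 56201 cells and gives each cell a code for its cell population. The cells came from C57B6/J mice without any genetic change or treatment, at embryonic days 16.5 and 18.5 (E16.5 and E18.5), at postnatal day 0 (P0) and in the adult. At each stage 1 library was made from CD45-Ter119- stroma and 1 from Lineage-Kit+ hematopoietic progenitors (HP), with a second HP library at E16.5, giving 4 stromal and 5 HP libraries. Per the study's methods each stage was a pool of mice, and fetal and newborn marrow was taken from the skeleton without the head whereas adult marrow was taken from tibias, femurs, pelvic bones and spines. Stage and the bones used cannot be told apart. Nothing says that the 2 E16.5 HP libraries came from separate animals, so their spread may be technical.

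TGF-beta is secreted in a latent form: the mature dimer stays wrapped in its own propeptide, which a latent binding protein ties to the extracellular matrix. Integrins, proteases and thrombospondin-1 can free the ligand, which then binds the type II receptor and, with the type I receptor, phosphorylates SMAD proteins inside the cell. In BM, TGF-beta made by megakaryocytes and stored in the niche is known for holding hematopoietic stem cells (HSCs) in quiescence, and in the skeleton it is known for its part in cartilage and bone formation.

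The regions just upstream of 3 members are shown because these genes divided between the 2 compartments in the results: Tgfb1 was higher in HP, Tgfb2 and Ltbp1 in stroma. Each line gives the 120 bases before a RefSeq start site in build GRCm38.p6, read on the strand of the gene, with the motif in capitals. The motif for Tgfb1 (chr7:25686882-25687001, plus strand) is the GC box GGGCGG, for Tgfb2 (chr1:186705990-186706109, minus strand) the TATA box TATAAA, and for Ltbp1 (chr17:75005409-75005528, plus strand) the cAMP response element TGACGTCA, each searched on both strands.
Tgfb1: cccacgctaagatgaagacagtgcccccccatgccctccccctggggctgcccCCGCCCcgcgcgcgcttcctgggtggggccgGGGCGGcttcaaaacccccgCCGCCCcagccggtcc
Tgfb2: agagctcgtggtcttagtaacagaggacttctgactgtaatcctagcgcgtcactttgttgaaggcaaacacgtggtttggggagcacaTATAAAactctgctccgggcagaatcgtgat
Ltbp1: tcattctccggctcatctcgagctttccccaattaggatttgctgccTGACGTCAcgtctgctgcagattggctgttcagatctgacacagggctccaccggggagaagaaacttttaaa
The Tgfb1 stretch held 3 GC boxes, the Tgfb2 stretch 1 TATA box and the Ltbp1 stretch 1 cAMP response element. The table has a second start for Ltbp1, whose window (chr17:75178531-75178830) held none of the 3 motifs. Of the 32851 promoters in the table (250 bases before to 50 after the start), 35.7% held GGGCGG, 13.6% TATAAA and 1.79% TGACGTCA, so GGGCGG and TATAAA were common motifs. A match is a description of the letters only. The table holds 8 promoter entries for 6 of the 9 members; Tgfb3, Tgfbr3 and Thbs1 have none in it.

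The libraries held between 560 and 14084 cells and 13974733 to 194892476 unique molecular identifiers (UMIs, counted mRNA molecules). Levels are given in CPM, the UMIs of a gene scaled to the total UMIs of the summed cells, and intervals are exact Poisson 95% intervals that cover counting error only. Some cell barcodes were shared between libraries: 1102 barcode sequences occurred in more than 1 library, in 2472 cells. The first E16.5 HP library shared 330 barcodes with the adult HP library, in which the adult cell held a median of 2.12% of the UMIs of its E16.5 partner (10th to 90th percentile, 1.99% to 2.31%). In the adult HP library 641 cells (10.7%) had a barcode that another library held with at least 10 times the UMIs, and they made up 263 of its 321 mast cells (81.9%). In the P0 HP library there were 154 such cells (2.48%), 152 of them among its 534 mast cells. Whether the shallower member of such a pair is a cell of its own was not tested, so the adult mast cell values are given with and without them. Without all such cells no member's library level moved by more than 1.02-fold in any of the 9 libraries, and all 77 fitted fold changes of members kept their direction and their side of the threshold.

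Between the 2 compartments, the ligand genes took opposite sides. Tgfb1, which encodes the main ligand of blood cells, was higher in HP, whereas Tgfb2 and Tgfb3, the isoforms best known from mesenchyme, were higher in stroma. Both latent binders and Thbs1 were also higher in stroma, as were 2 of the 3 receptors. Across library sums fitted with the stage as a covariate, 7 of 9 members were higher in stroma, where 32.0% of all 18407 genes tested were higher, and 1 was lower, where 25.8% of all genes were lower and 57.8% differed in either direction (edgeR's quasi-likelihood test, Benjamini-Hochberg adjusted p under 0.05). The median log2 fold change was 3.76 over the 9 members.

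For Tgfb1, the HP libraries held 234 and 140.3 CPM in the E16.5 pair, then 211 (E18.5), 216 (P0) and 161 (adult) CPM, and the stromal libraries 19.3, 32.1, 35.8 and 139 CPM at the same 4 stages. The groups did not overlap, but the adult stromal library lay just below the lowest HP library. The difference (stroma minus HP) was -2.24 on the log2 scale (SE 0.49, adjusted p = 0.00735). Tgfb2 lay between 0.152 and 1.22 CPM in the 5 HP libraries and at 62.2, 57.1, 75.0 and 133 CPM in stroma, a log2 difference of 7.38 (SE 0.70, adjusted p = 0.000213). Tgfb3 lay between 0.118 and 0.323 CPM in HP and at 36.3, 38.8, 50.4 and 64.5 CPM in stroma, a log2 difference of 7.78 (SE 0.39, adjusted p = 1.95e-05). For both genes every stromal library stood far above every HP library.

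Tgfbr1 encodes the type I receptor kinase, and it was the member whose level was most alike in the 2 compartments. Its HP libraries held 33.9, 26.8, 27.9, 18.1 and 14.8 CPM in stage order and its stromal libraries 29.3, 28.8, 29.8 and 31.3 CPM. The groups overlapped through the first E16.5 HP library, and the log2 difference of 0.47 (SE 0.22) did not pass the test (adjusted p = 0.102), although it did without the E16.5 stromal library (0.66, adjusted p = 0.0479). Tgfbr2, the ligand-binding type II receptor, held 33.7, 17.7, 21.1, 16.2 and 11.0 CPM in HP and 44.0, 45.8, 54.9 and 109 CPM in stroma, without overlap, and was higher in stroma by 1.73 on the log2 scale (SE 0.40, adjusted p = 0.00944). Tgfbr3, or betaglycan, a co-receptor that presents TGF-beta2 to the type II receptor, held 1.29, 2.55, 9.05, 10.4 and 7.36 CPM in HP and 26.4, 34.1, 46.4 and 124 CPM in stroma, and was higher in stroma by 3.09 (SE 0.41, adjusted p = 0.000896). The 2 E16.5 HP libraries were the lowest of all 9 for Tgfbr3.

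Ltbp1 and Ltbp3 anchor the latent complex in the matrix. Ltbp1 lay between 0.608 and 5.62 CPM in HP and at 26.9, 26.3, 39.4 and 57.3 CPM in stroma (log2 difference 3.76, SE 0.64, adjusted p = 0.00262). Ltbp3 lay between 0.136 and 2.60 CPM in HP and at 48.2, 68.2, 76.8 and 137 CPM in stroma (log2 difference 7.14, SE 0.50, adjusted p = 6.02e-05). Thrombospondin-1, the product of Thbs1, is a matricellular protein that can activate latent TGF-beta. Thbs1 lay between 0.970 and 20.7 CPM in HP and at 228, 341, 356 and 502 CPM in stroma (log2 difference 5.90, SE 0.75, adjusted p = 0.000771). None of these 3 genes overlapped between the compartments. Averaging the CPM of single cells in place of summing moved 14 of the 81 library levels by more than 1.5 times, all 14 in HP, such as Thbs1 from 20.7 to 58.8 CPM (E18.5 HP) and Tgfb2 from 0.152 to 1.09 CPM (adult HP).

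**Figure D1:**
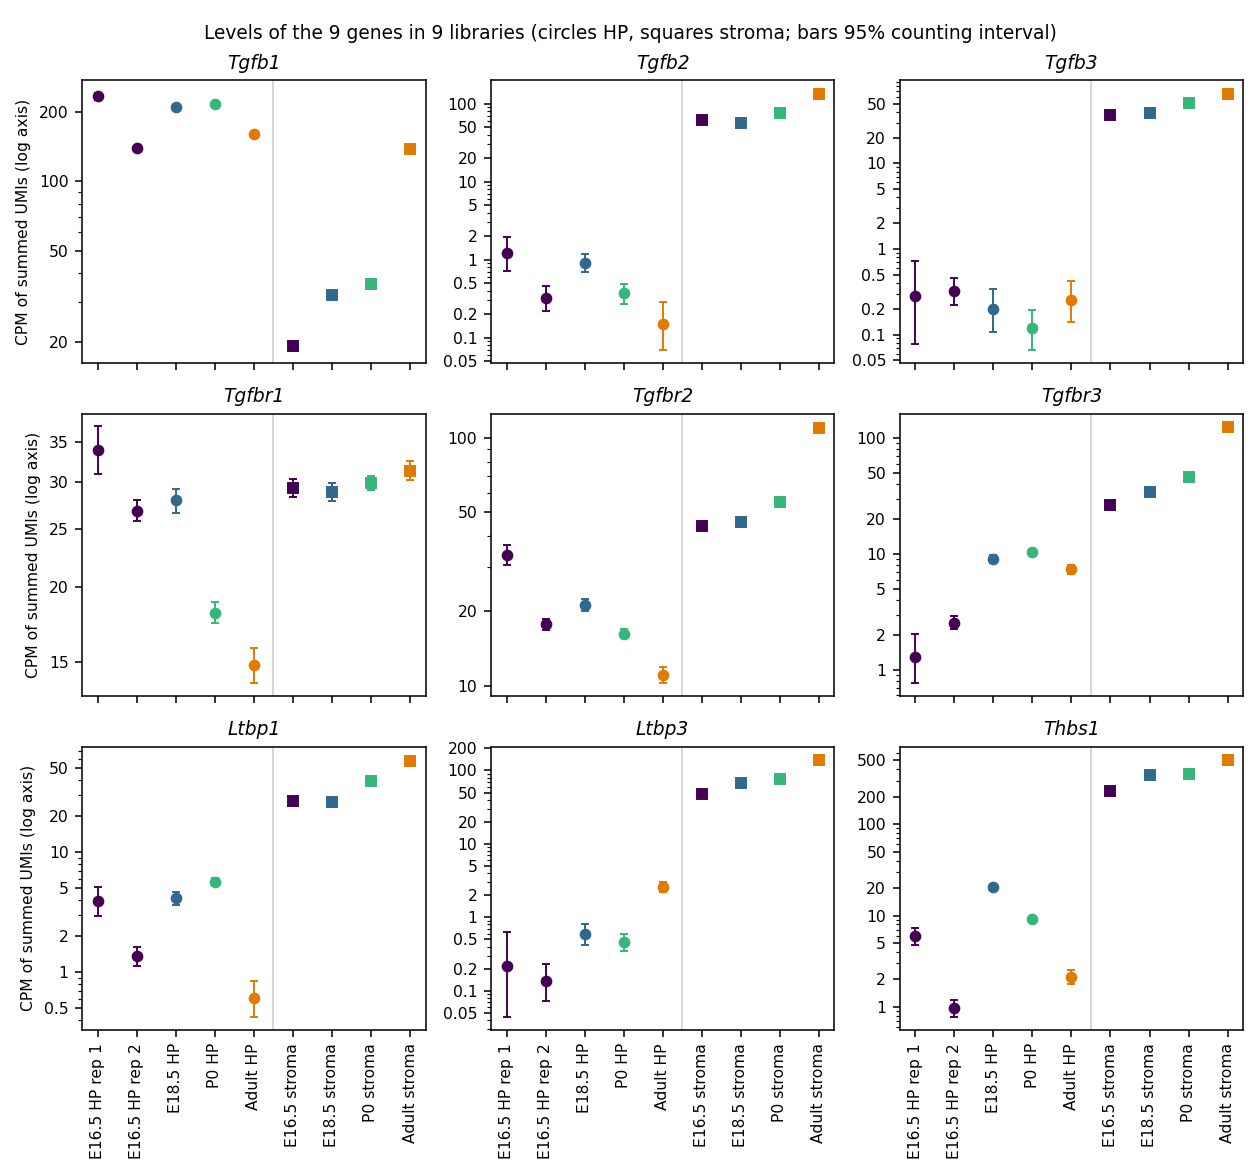
Level of each of the 9 members in each library, in CPM on a log axis, with circles for the 5 HP libraries, squares for the 4 stromal libraries and bars for the exact Poisson 95% interval. Tgfb1 lies higher in HP, Tgfbr1 overlaps between the compartments and the other 7 genes lie higher in stroma.

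Of 41 other genes of the pathway, 32 were higher in stroma than in HP and 1 was lower, where 32.0% and 25.8% of all genes were. All 4 small proteoglycan genes that bind TGF-beta were among those that were higher, with log2 differences of 13.87 for Fmod, 12.40 for Bgn, 11.29 for Dcn and 10.46 for Aspn. Of the 7 genes of the latent store, 6 were higher, with 9.93 for Fbn2 and 8.62 for Fbn1, which encode the fibrillins that Ltbp proteins attach to. Among 10 activators 7 were higher, with 8.15 for Mmp2 and 7.69 for Itgb8, an integrin subunit that frees the ligand. Among 5 target genes 4 were higher, with 13.23 for Ctgf and 8.58 for Tagln.

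Within HP, the members were spread unevenly over the 70 population codes with at least 50 cells. Tgfb1 had at least 1 UMI in each, with a median of 184 CPM. The lowest was the adult code named Stroma at 24.4 CPM, from 1 UMI, and Tgfb1 was highest in the E18.5 code Mono1iii at 361 CPM. Megakaryocyte codes were in the upper range for Tgfb1, at 303 CPM in P0 MegP1 and 265 CPM in adult MegP2. Tgfb2 had no UMI in 32 and Tgfb3 none in 40 of the 70 codes. Of the HP codes with the most Tgfb2, the adult code named Stroma held 73.2 CPM from 3 UMIs and the E16.5 code UD2 held 28.4 CPM together with 979 CPM of fibroblast marker genes.

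The receptor Tgfbr1 had a median of 19.6 CPM over the HP codes but stood far above that in a few monocyte codes. In E18.5 Mono2 it reached 528 CPM (476 to 585), in E18.5 Mono1iii 263 CPM and in P0 Mono2 134 CPM. E18.5 Mono2 was also the highest HP code for Tgfbr2, at 178 CPM against a median of 20.6 CPM, and adult EryP2, an erythroid code, was the lowest at 1.70 CPM. Tgfbr3 had a median of 3.07 CPM over the HP codes. It was highest in the adult code named Stroma at 97.6 CPM, from 4 UMIs, followed by megakaryocyte codes, with 41.0 CPM in adult MegP2 and 32.2 CPM in P0 MegP1. Megakaryocyte codes held 39.7% of the Tgfbr3 UMIs of the P0 HP library with 12.8% of all its UMIs, and 37.6% of those of the adult library with 6.75% of all its UMIs.

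Thbs1 held the highest value of any member in an HP code, and was high in neutrophil and monocyte codes of the E18.5 and P0 libraries. Its median over the 70 codes was 1.07 CPM, while the E18.5 neutrophil code Neu2 (71 cells) held 1184 CPM (1081 to 1295). The P0 code Neu2, with only 28 cells, held 2505 CPM (2192 to 2850). Neutrophil codes of the other stages were low, with 13.0 CPM in E16.5 Neu1 and 2.58 CPM in adult Neu3. Monocyte codes held 53.9% and neutrophil codes 35.9% of the Thbs1 UMIs of the E18.5 HP library, although neutrophil codes held only 0.628% of all its UMIs. At P0 monocyte codes held 29.3% of them.

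The 2 latent binders differed among HP codes. Ltbp1 had no UMI in 22 of the 70 codes, and it was highest in mast cell and megakaryocyte codes, at 28.6 CPM in P0 Mast3, 20.9 CPM in E18.5 Mast3 and 15.3 CPM in P0 MegP1. Megakaryocyte codes held 34.9%, erythroid codes 30.5% and mast cell codes 15.9% of the Ltbp1 UMIs of the P0 HP library. Ltbp3 had no UMI in 31 of the 70 codes. Its highest value was 24.4 CPM in the adult code named Stroma, from 1 UMI, and the next was adult HSPC5, a progenitor code, at 8.07 CPM from 44 UMIs. The code values are a description, because each code comes from 1 pool of mice or, at E16.5, from 2 libraries.

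**Figure D2:**
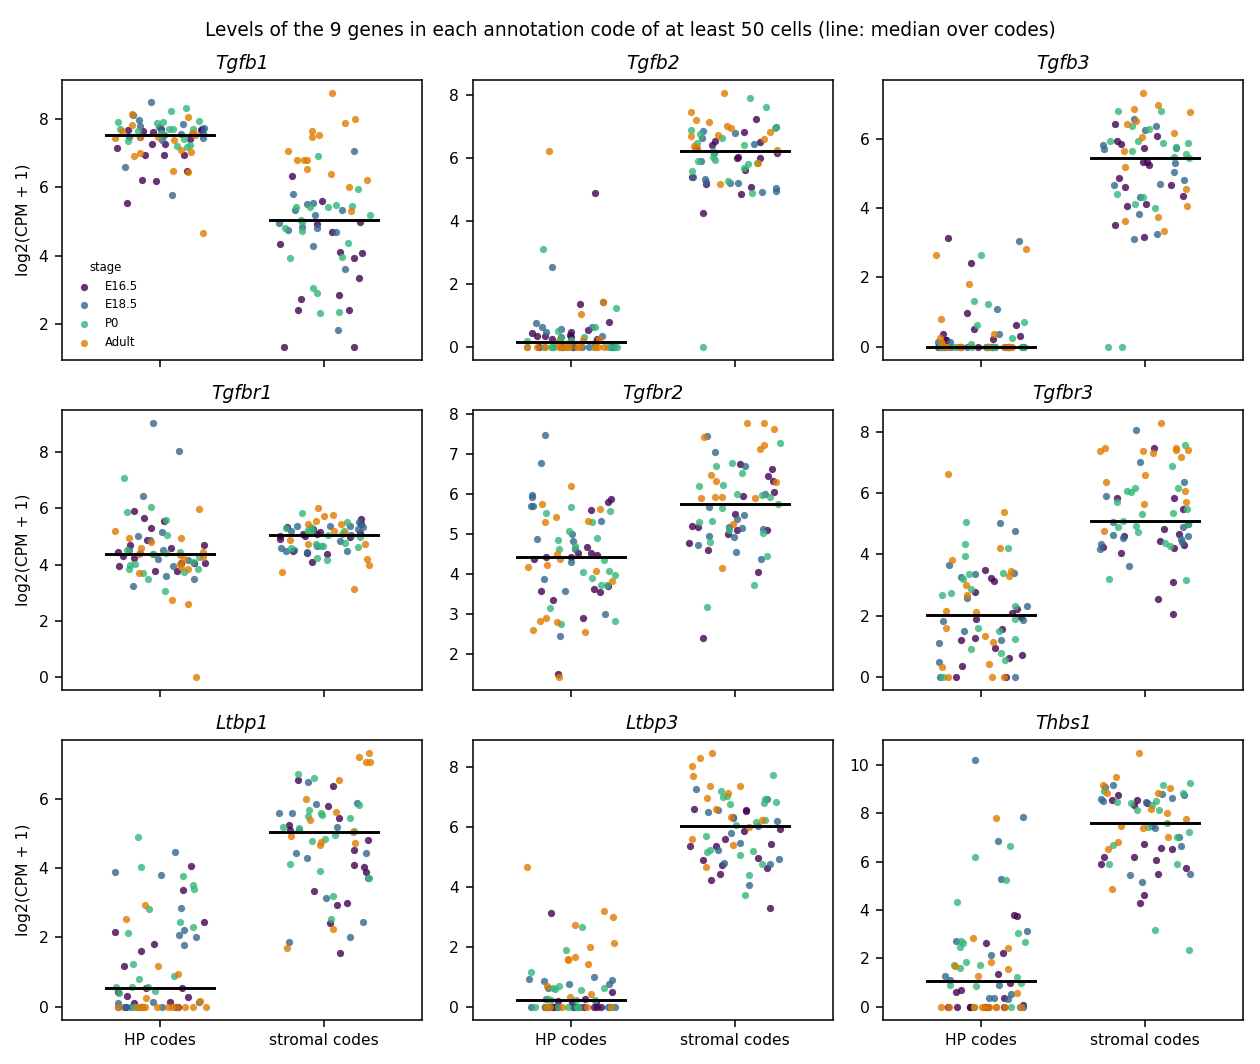
Level of each member in each population code with at least 50 cells, as log2(CPM + 1), for 70 HP codes and 65 stromal codes, coloured by stage with a line at the median. Tgfb1 has the higher median in HP, the single codes of Tgfbr1 and Thbs1 that stand apart in HP are monocyte and neutrophil codes, and Tgfb2, Tgfb3 and Ltbp3 lie near 0 in most HP codes.

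Over the 65 stromal codes, the median of Tgfb1 was 31.7 CPM, and the adult endothelial codes were its highest, with 433 CPM (404 to 464) in SECs, the sinusoidal cells, and 255 CPM (235 to 276) in AECs, the arterial cells. The lowest stromal code for Tgfb1 was E16.5 P1i at 1.51 CPM. Tgfb2 held 103 CPM (90.6 to 117) in AECs and 34.5 CPM (26.6 to 44.1) in SECs, and Thbs1 held 129.7 CPM (116 to 145) in AECs and 178 CPM (159 to 198) in SECs. Tgfb3 held 9.14 CPM (5.73 to 13.8) in AECs and 15.6 CPM (10.5 to 22.5) in SECs. Both codes come from 1 library, so these differences have no replicate check.

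Among mesenchymal codes of the adult, the 2 mesenchymal stromal cell (MSC) populations differed. CARs, the CXCL12-abundant reticular cells, were the highest stromal code for Tgfbr3 at 312 CPM and for Ltbp1 at 158 CPM. The adult code F8, the PDGFRa+ Sca-1+ (PaS) MSCs, was the highest for Tgfb2 at 264 CPM, where CARs held 56.0 CPM. Fibroblast code F11 was the highest stromal code for Tgfb3 (158 CPM), Tgfbr1 (64.4 CPM) and Tgfbr2 (219.9 CPM), and F13 was the highest for Ltbp3 at 353 CPM. Thbs1 was highest in F9 at 1436 CPM, a code that held 21770 CPM of cartilage marker genes beside 14996 CPM of fibroblast marker genes. The median of Thbs1 over the stromal codes was 193 CPM.

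In the stromal library sums, 4 of the 9 members were higher in the adult library than in the 3 perinatal ones (E16.5, E18.5 and P0) and none was lower, where 14.1% of all 18186 genes tested were higher and 8.77% lower (22.9% in either direction). Stages stand in for replicates here: the spread comes from the 3 perinatal stages, and the adult is 1 library with no replicate of its own. A sum mixes cell types, so fewer cells of a type and less RNA per cell cannot be told apart. The 4 genes were Tgfb1 (139 CPM in the adult against 19.3 to 35.8; log2 fold change 2.13, SE 0.33, adjusted p = 0.00575), Tgfb2 (0.92, SE 0.24, adjusted p = 0.0343), Tgfbr2 (1.05, SE 0.23, adjusted p = 0.0186) and Tgfbr3 (1.67, SE 0.31, adjusted p = 0.0105). Without the E18.5 library the adjusted p was 0.139 for Tgfb2, 0.0887 for Tgfbr2 and 0.0549 for Tgfbr3. Ltbp3 (0.97, adjusted p = 0.0520), Ltbp1 (0.77, adjusted p = 0.0889), Thbs1 (0.58, adjusted p = 0.221) and Tgfb3 (0.50, adjusted p = 0.192) did not pass, and Tgfbr1 had a log2 fold change of -0.03 (adjusted p = 0.935). Ltbp3 passed without the E16.5 library (adjusted p = 0.0105), without the P0 library (0.0247) and with DESeq2 (0.0273), and Ltbp1 without the P0 library (0.0146).

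Fitted class by class, Tgfb1 was higher in the adult in endothelial, fibroblast and cartilage codes alike. The adult library shared no code with the perinatal ones in any of these classes. A change in the codes summed and a change within a code therefore cannot be told apart. In endothelial codes it held 79.3, 133 and 121 CPM at the perinatal stages and 333 CPM in the adult (log2 fold change 1.30, SE 0.33, adjusted p = 0.0273), and was the only member called, where 5.08% of all 10906 genes were higher and 3.70% lower (8.78% in either direction). Without the E18.5 library the call was lost (1.37, adjusted p = 0.154). Ltbp3 in these codes passed without the P0 library (1.31, adjusted p = 0.0342), and Ltbp3 and Tgfbr3 without the filter on low counts (adjusted p = 0.0329 and 0.0428). In fibroblast codes Tgfb1 held 10.4, 23.3 and 22.8 CPM and then 177 CPM in the adult (3.37, SE 0.41, adjusted p = 0.00383). In cartilage codes it held 28.4, 35.5 and 44.4 CPM and then 99.6 CPM (1.45, SE 0.27, adjusted p = 0.0102). The adult library lay above all 3 perinatal libraries in each class. The gain in fibroblast codes was larger than in endothelial codes by 2.12 on the log2 scale (adjusted p = 8.37e-06) and larger than in cartilage codes by 1.93 (adjusted p = 0.0117), in joint fits with the library as a block that were added after the values were seen.

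Marker genes of blood cells moved with these classes. Their summed level (5 genes) in fibroblast codes was 8.44, 5.84 and 4.09 CPM at the perinatal stages and 72.5 CPM in the adult, in cartilage codes 1.67, 1.28, 6.33 and 74.3 CPM, and in endothelial codes 43.7, 7.44, 7.78 and 92.0 CPM. Ptprc, the gene of CD45 that defines leukocytes, stayed at or below 0.0638 CPM in all of these, and was at 0 in the endothelial codes of all 4 stages. The stroma was sorted as CD45-, and the study took blood cells out of the stromal data it plotted. A low Ptprc was therefore selected for and says little about RNA from blood cells in these codes. The part of the other blood markers in the Tgfb1 difference was not tested.

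In fibroblast codes 4 of 9 members were higher in the adult and none was lower, where 14.5% of all 15796 genes were higher and 12.1% lower (26.7% in either direction). Beside Tgfb1 these were Thbs1, at 81.3, 147 and 219.7 CPM and then 876 CPM (log2 fold change 2.68, SE 0.49, adjusted p = 0.0124), Tgfbr3, at 39.8, 66.4 and 74.0 CPM and then 168 CPM (1.62, SE 0.35, adjusted p = 0.0207), and Ltbp3, at 58.4, 106 and 100.5 CPM and then 228 CPM (1.51, SE 0.35, adjusted p = 0.0243). All 4 lay higher in the adult than at any earlier stage. The calls for Thbs1, Tgfbr3 and Ltbp3 did not hold without the E18.5 library (adjusted p = 0.0622, 0.0803 and 0.077). With the adult code F8 in and F9 out, the Thbs1 fold change was 1.13 (adjusted p = 0.133). The fibroblast codes held 2094, 7271 and 7650 CPM of cartilage marker genes at the perinatal stages and 9645 CPM in the adult, and the part of these in the Thbs1 value was not tested further. The ligands Tgfb2 and Tgfb3 had log2 fold changes of 0.18 and 0.68 in fibroblast codes and were not called. The direction of Ltbp1 depended on the codes summed: it turned upward with F8, which held 145 CPM of it, in and F9 out. Ltbp1 held 51.7, 69.9 and 74.0 CPM and then 41.6 CPM (-0.51, adjusted p = 0.228), and was called only without the E16.5 library (-0.68, adjusted p = 0.0282).

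In cartilage codes the members moved both ways: 4 of 9 were higher in the adult, where 10.5% of all 16579 genes were higher, and 2 were lower, where 7.81% of all genes were lower and 18.3% changed in either direction. Tgfb2 held 45.4, 40.0 and 52.4 CPM and then 118 CPM in the adult (log2 fold change 1.35, SE 0.22, adjusted p = 0.00709), while Tgfb3 held 33.9, 29.4 and 41.3 CPM and then 16.0 CPM (-1.14, SE 0.28, adjusted p = 0.0291). The receptors divided in the same manner. Tgfbr2 held 32.3, 32.3 and 38.8 CPM and then 80.6 CPM (1.21, SE 0.21, adjusted p = 0.00848), and Tgfbr1 held 24.7, 25.2 and 24.8 CPM and then 11.2 CPM (-1.16, SE 0.21, adjusted p = 0.0102). Tgfbr3 held 17.8, 22.1 and 32.3 CPM and then 56.3 CPM (1.21, SE 0.32, adjusted p = 0.0383), a call lost without the E18.5 library (1.14, adjusted p = 0.0597). In each of these 5 genes the adult value lay outside the range of the perinatal values. Single codes varied: for Tgfb3 the perinatal code C5 held 16.4, 13.2 and 19.1 CPM, and the other perinatal cartilage codes 23.5 to 59.7 CPM. The adult codes C9, C10 and C11 held 22.3, 12.4 and 11.3 CPM. The part of the codes summed in these fold changes was not tested. Ltbp1 (-0.61), Ltbp3 (-0.32) and Thbs1 (0.07) were not called.

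The difference between fibroblast and cartilage codes was itself tested, in the joint fit added after the values were seen, in which 25.2% of all 17021 genes were called. The adult minus perinatal change was larger in fibroblast codes for Thbs1 (by 2.69 on the log2 scale, adjusted p = 0.0106), Ltbp3 (1.82, adjusted p = 0.00765), Tgfb3 (1.78, adjusted p = 0.0102) and Tgfbr1 (1.49, adjusted p = 0.00395). It was smaller in fibroblast codes for Tgfb2 (-1.22, adjusted p = 0.00803) and Tgfbr2 (-0.94, adjusted p = 0.0102). With Tgfb1, 7 of the 9 members differed between these classes. With the adult code F8 in and F9 out, where 25.3% of all genes were called, Thbs1 (1.16, adjusted p = 0.0896), Tgfb2 (-0.58, adjusted p = 0.0551) and Tgfbr2 (-0.51, adjusted p = 0.0526) did not pass, and Tgfb1 (1.35, adjusted p = 0.0306), Tgfb3 (1.74, adjusted p = 0.0109), Tgfbr1 (1.51, adjusted p = 0.0041) and Ltbp3 (1.66, adjusted p = 0.00983) did. Endothelial codes differed from fibroblast codes in Tgfb1 and Thbs1 (2.11, adjusted p = 0.000217), where 10.0% of all genes were called. With F8 in and F9 out, where 7.06% were called, Tgfb1 passed (1.52, adjusted p = 0.000777) and Thbs1 did not (0.57, adjusted p = 0.432). Endothelial codes differed from cartilage codes in Tgfb2, Tgfbr1, Tgfbr2 and Ltbp3, where 12.0% of all genes were called. Pericyte codes differed from cartilage codes in Tgfb2 (-1.33, adjusted p = 0.0489) and Ltbp3 (1.43, adjusted p = 0.0445), where 6.48% of all genes were called, and no member passed the test of pericyte against fibroblast (1.09% of genes called) or endothelial codes (0.0455%).

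**Figure D3:**
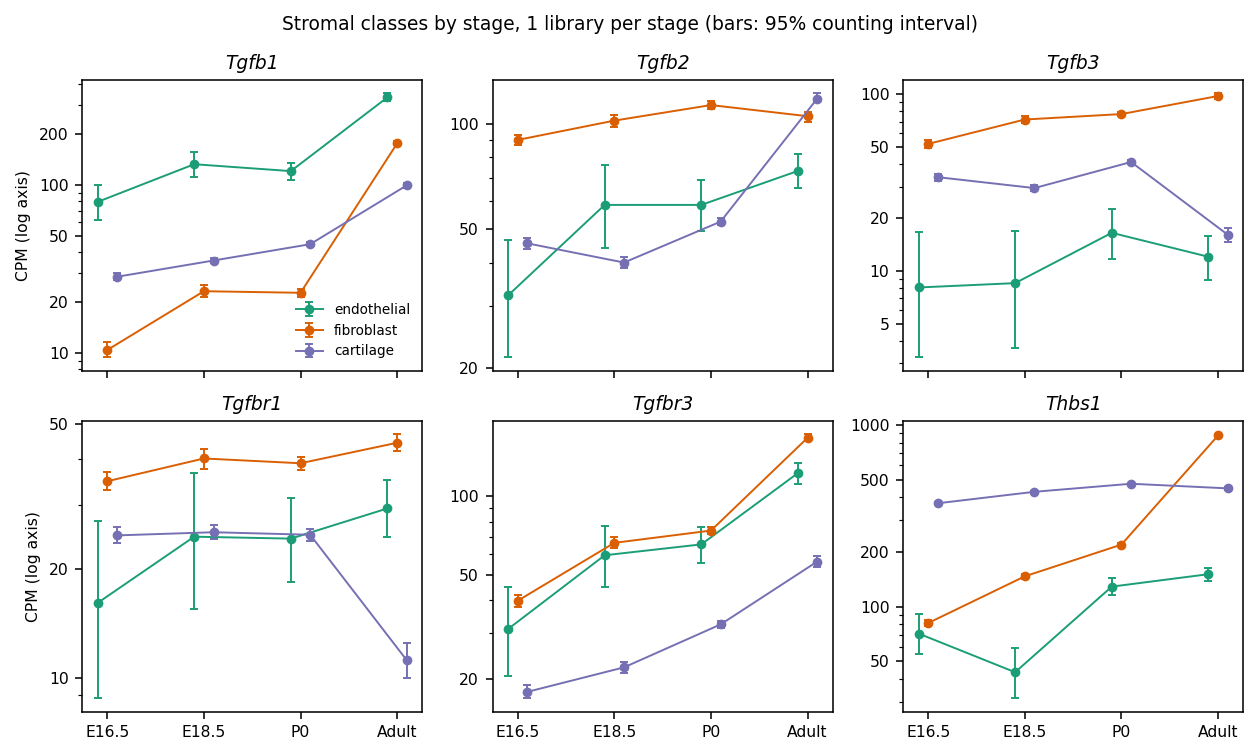
Level of Tgfb1, Tgfb2, Tgfb3, Tgfbr1, Tgfbr3 and Thbs1 in endothelial, fibroblast and cartilage codes at the 4 stages, in CPM with exact Poisson 95% intervals. Tgfb1 is highest in the adult in all 3 classes, Tgfb3 and Tgfbr1 are lowest in the adult in cartilage codes (16.0 and 11.2 CPM), and Thbs1 stands at 876 CPM in adult fibroblast codes, where code F9 supplies 18034 of the 27494 UMIs.

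Pericyte codes gave no call for any of the 9 members, where 450 of all 13675 genes (3.29%) were called. Tgfb1 held 1.51, 9.97 and 12.6 CPM at the perinatal stages and 82.7 CPM in the adult, with a log2 fold change of 3.09 (SE 0.90, adjusted p = 0.109). Thbs1 had 2.21 (adjusted p = 0.110) and Tgfbr3 1.86 (adjusted p = 0.0835). DESeq2, which called 1763 of the 13675 genes, called these 3 as well, with adjusted p = 0.0148 for Tgfb1, 0.018 for Thbs1 and 0.0132 for Tgfbr3. Without the E16.5 library 8 of the 9 members were called, where 5119 of 12832 genes were called. The name of this class did not match the markers throughout: the codes held 449, 2645, 2436 and 10898 CPM of pericyte and smooth muscle markers in stage order, beside 1171, 727, 755 and 1014 CPM of skeletal muscle markers. In the 1 code of each stage whose pericyte and smooth muscle markers led, a set chosen after the data were seen, Tgfb1 held 16.0, 26.8 and 31.7 CPM and then 91.9 CPM in the adult (log2 fold change 1.73, adjusted p = 0.0546). At E16.5 that code was F4, a fibroblast code by name, which also stayed in the fibroblast fits. In the whole pericyte class, blood cell markers were between 0.789 and 1.33 CPM before birth and at P0, and 1677 CPM in the adult, where Ptprc was at 0. The CD45- sort selected against Ptprc here too.

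**Figure D4:**
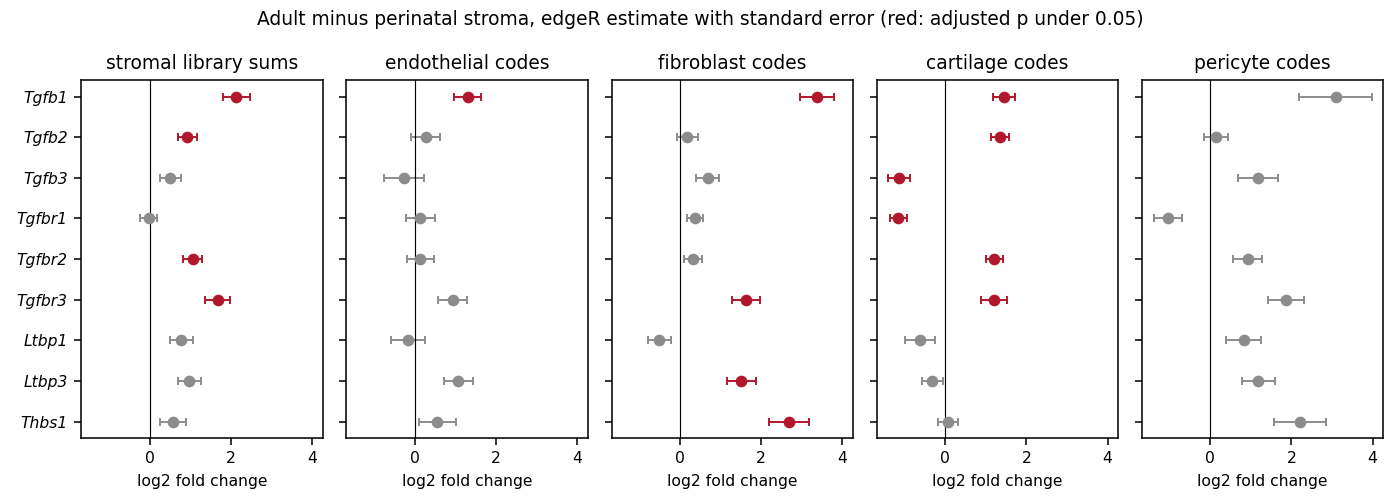
Log2 fold change of each member, adult minus perinatal, with its SE in the stromal library sums and in endothelial, fibroblast, cartilage and pericyte codes, with red points for an adjusted p under 0.05. Tgfb1 is called in 4 of the 5 fits, Tgfb3 and Tgfbr1 are called lower in cartilage codes, and no member is called in pericyte codes.

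Other genes of the pathway were counted in the same fits. In the stromal sums 9 of 41 were higher in the adult and 1 was lower (all genes, 14.1% and 8.77%), and in endothelial codes 5 of 38 tested were higher and 1 lower (all genes, 5.08% and 3.70%). In fibroblast codes 10 of 40 were higher and 3 lower (all genes, 14.5% and 12.1%). In cartilage codes 4 of 40 were higher and 4 lower, close to the 10.5% and 7.81% of all genes, and in pericyte codes 2 of 40 were higher and 1 lower (all genes, 3.29% in either direction). Fbn2, a fibrillin of developing tissue, fell in every one of these fits, with log2 fold changes of -4.09 in the sums, -6.24 in endothelial, -4.01 in fibroblast, -6.79 in cartilage and -4.59 in pericyte codes. Dcn, which encodes the TGF-beta binding proteoglycan decorin, rose by 3.64 in the sums, 3.80 in endothelial codes and 3.88 in fibroblast codes. Ctgf, a TGF-beta target, rose by 3.23 in fibroblast codes, and the target Tagln rose by 3.34 in endothelial codes and by 3.19 in cartilage codes. Ltbp4, another latent binder gene, rose by 2.22 in endothelial codes and fell by 1.87 in cartilage codes.

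In HP the question was how the members differed between E16.5 and later stages. No member was called in the HP library sums, where 210 of all 15093 genes (1.39%) were called. Tgfbr3 was the nearest, with 1.29 and 2.55 CPM in the 2 E16.5 libraries and 7.36 to 10.4 CPM in the 3 later ones, without overlap (log2 fold change 2.13, SE 0.41, adjusted p = 0.0661). DESeq2, which called 2027 of the 15093 genes, called it (adjusted p = 8.74e-06). The make-up of the libraries moved with this contrast: neither E16.5 library had a megakaryocyte code, and T and NK codes held 2141 and mast cell codes 1804 of the 4752 cells of the second, whereas megakaryocyte codes held 686 cells at P0 and 417 in the adult. The E18.5 library, at 9.05 CPM of Tgfbr3, had no megakaryocyte code either, and its nearest code, EryP/MegP, counted as erythroid, held 31.5 CPM. A change in the cell types sampled and a change in Tgfbr3 per cell cannot be told apart in these sums. Tgfbr1 and Tgfbr2 had log2 fold changes of -0.63 and -0.71 and were not called, and Tgfb1 had 0.04. Among the other pathway genes 1 of 36 tested rose, Eng, the gene of the co-receptor endoglin, by 1.89.

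Phenotypic long-term HSCs (phLT-HSCs, Sca-1+CD135-CD48-CD150+) and multipotent progenitors 2 (phMPP2s, Sca-1+CD135-CD48+CD150+) were gated by their surface antibody signal. The gates were set here, so their cells are not the study's own sets of these names. For phLT-HSCs the P0 and adult gates held more cells than the study reports for any stage. The study found most of its phLT-HSCs among HSPCs, except at E16.5. The phLT-HSC gate held 10, 28, 33, 114 and 134 cells in library order and the phMPP2 gate 10, 64, 74, 116 and 103 cells, so the first E16.5 library rested on 10 cells in each. The gated cells fell in different population codes by stage. Of the E16.5 phLT-HSCs, 9 of 10 in the first library were in a macrophage or mast code and 22 of 28 in the second in T and NK codes, with none in hematopoietic stem and progenitor cell (HSPC) codes, whereas HSPC codes held 69.7% (E18.5), 65.8% (P0) and 21.6% (adult) of the later phLT-HSCs and B-lineage codes 38.8% of the adult ones. Of the E16.5 phMPP2s, 7 of 10 were in a macrophage or mast code and 42 of 64 in T and NK codes, and HSPC codes held 31.1%, 53.4% and 13.6% at the later stages. Megakaryocyte codes, which were high for Tgfbr3, held 29.1% of the adult phMPP2s and 17.2% of the adult phLT-HSCs. At P0 they held 6.90% and 7.02%. The part of this in the values by gate was not tested. In phLT-HSCs Tgfbr3 had 0 UMIs in the first E16.5 library, where 3 UMIs, the limit used for a count of 0, would be 16.3 CPM, and held 3.51 CPM in the second, then 25.2 (E18.5), 24.0 (P0) and 18.0 (adult) CPM. The later values were above that of the second E16.5 library, while the adult value lay inside the Poisson interval of the first. The test over all 7456 genes called none (log2 fold change 3.06, SE 0.75, adjusted p = 0.246). No gene of any kind was called in this gate by edgeR (0%), while 796 genes had an unadjusted p under 0.05 and DESeq2 called 85.

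The type I receptor gene Tgfbr1 held in phMPP2s 83.5 and 51.0 CPM in the E16.5 pair, then 30.7 (E18.5), 26.2 (P0) and 19.8 (adult) CPM. Both E16.5 libraries lay above the 3 later ones, and the log2 fold change of -1.42 (SE 0.33) was not called (adjusted p = 0.169, and 0.0393 without the filter on low counts). In the whole E16.5 libraries the macrophage or mast code held 59.5% and 6.54% of the Tgfbr1 UMIs, with 27.6% and 3.87% of all UMIs. T and NK codes held 1.48% and 63.8% of the Tgfbr1 UMIs, with 2.87% and 51.2% of all UMIs. HSPC codes held 2.32% and 1.87% of them, with 5.97% and 3.34% of all UMIs. The part of this in the phMPP2 values was not tested. No gene was called in this gate by edgeR either (0% of 9750 genes), with 1169 at an unadjusted p under 0.05 and 226 called by DESeq2. In phLT-HSCs Tgfbr1 held 54.3, 29.8, 20.5, 28.9 and 18.0 CPM (log2 fold change -0.77, adjusted p = 0.585). Tgfbr3 in phMPP2s had 0 UMIs in the first E16.5 library (3 UMIs would be 8.08 CPM), and held 4.01, 11.1, 14.7 and 22.0 CPM in the others (2.33, adjusted p = 0.282).

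Tgfb1 was present in both gates at every stage, at 168, 80.7, 151, 212 and 156 CPM in phLT-HSCs and 256, 99.1, 232, 263 and 213 CPM in phMPP2s. The 2 E16.5 libraries differed more from each other than the later stages did. Tgfbr2 in phLT-HSCs held 76.0 CPM in the first E16.5 library and 12.3 CPM in the second, which spanned the 31.5 to 44.3 CPM of the later libraries. Of the 9 members only 4 passed the filter on low counts in phLT-HSCs and 5 in phMPP2s. Tgfbr3 passed it in both gates through the later libraries, where its level was higher.

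In mast cell codes the gene of the type I receptor, Tgfbr1, of the co-receptor, Tgfbr3, and of the latent binder Ltbp1 passed the test between E16.5 and the later stages. Of the 9 members 5 passed the filter on low counts and 3 were higher later, where 3.89% of all 10584 genes were higher and 2.21% lower (6.10% in either direction). Tgfbr1 held 20.6 and 18.1 CPM in the E16.5 pair, then 34.5 (E18.5), 56.7 (P0) and 41.8 (adult) CPM (log2 fold change 1.06, SE 0.28, adjusted p = 0.0462). Ltbp1 held 4.48 and 3.09 CPM, then 20.9 and 27.7 CPM, and 3.80 CPM in the adult (2.43, SE 0.39, adjusted p = 0.00810). Tgfbr3 held 0.543 and 0.490 CPM, then 5.00, 5.35 and 3.80 CPM (3.12, SE 0.59, adjusted p = 0.0151). It passed the filter only through these later values, so its call and the count of 3 depend in part on that filter. The Tgfbr1 and Tgfbr3 values of the later libraries lay above those of both E16.5 libraries, whereas the adult value of Ltbp1 lay between those. The adult values of Tgfbr3 and Ltbp1 each rest on 1 UMI, and the interval for Ltbp1 ran from 0.0962 to 21.2 CPM.

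Most adult mast cells had a barcode that another library held with at least 10 times the UMIs. Without those cells P0 held 57.5 CPM and the adult 70.2 CPM of Tgfbr1, the adult value coming from 5 UMIs. The adult library then had 0 UMIs of Tgfbr3, where 3 UMIs would be 42.1 CPM, and 1 UMI of Ltbp1, or 14.0 CPM. The interval of that Ltbp1 value, 0.355 to 78.2 CPM, held the values of both E16.5 libraries. In this fit, in which 1250 of 10437 genes were called, the 3 fold changes were 1.14 for Tgfbr1 (adjusted p = 0.00896), 3.15 for Tgfbr3 (adjusted p = 0.00112) and 2.59 for Ltbp1 (adjusted p = 1.24e-05). Tgfbr3 again passed the filter on low counts only through its later values, here those of E18.5 and P0. Its adjusted p is therefore no separate support for a rise. Some calls were lost on leaving out a library. Without the first E16.5 library Tgfbr1 had 1.16 (adjusted p = 0.113) and Tgfbr3 3.17 (adjusted p = 0.0805). Without the second, Tgfbr1 had 0.95 (adjusted p = 0.363), Tgfbr3 2.97 (adjusted p = 0.238) and Ltbp1 2.09 (adjusted p = 0.176). In both fits E16.5 is 1 library, assumed to vary like the later ones. Without P0, Tgfbr1 had 0.81 (adjusted p = 0.217) and Tgfbr3 3.11 (adjusted p = 0.0565). DESeq2 did not call Tgfbr1 (adjusted p = 0.0654). With all mast cells kept, 4 of 26 other pathway genes tested rose, where 3.89% of all genes were higher: Eng by 3.78, Tgfbi by 3.81, Itgb3 by 2.54 and Tgif1 by 1.91.

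**Figure D5:**
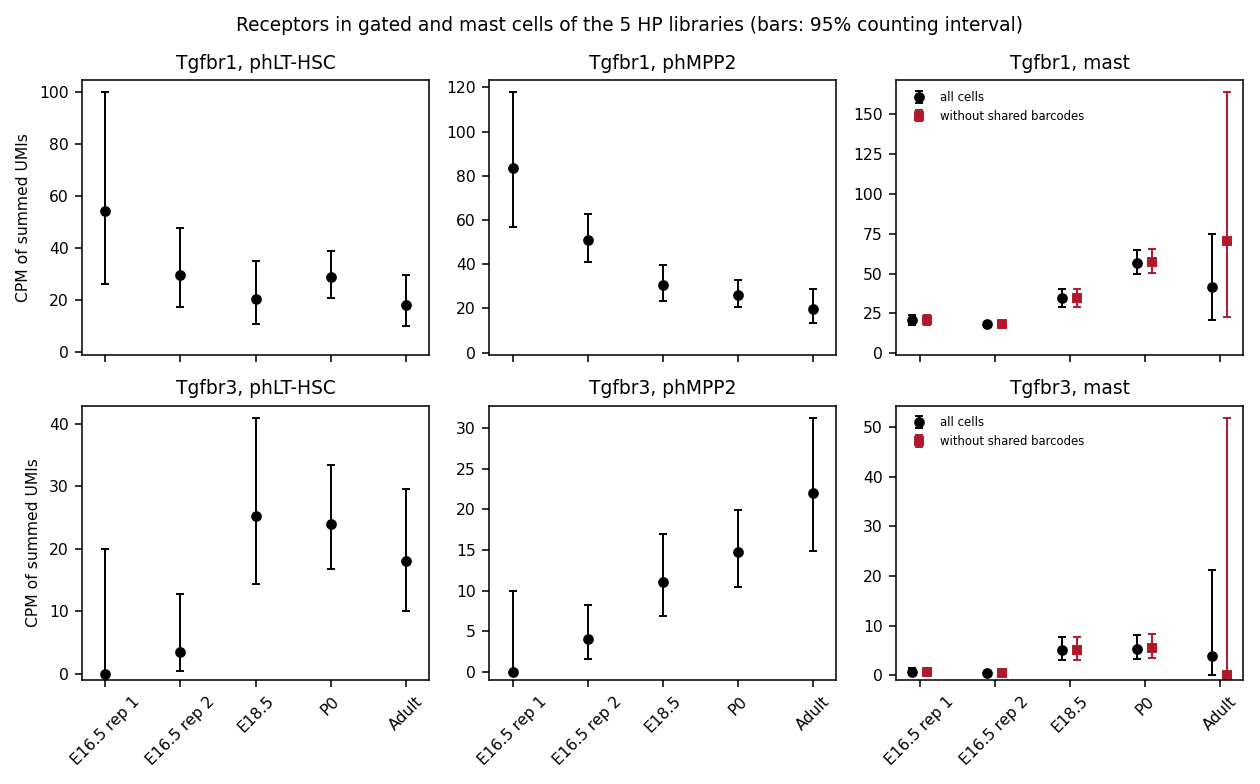
Level of Tgfbr1 and Tgfbr3 in phLT-HSCs, phMPP2s and mast cell codes in the 5 HP libraries, in CPM with exact Poisson 95% intervals, with mast cells also shown without the cells that have a barcode another library holds with at least 10 times the UMIs. Tgfbr1 values are lower after E16.5 in phMPP2s (83.5 and 51.0 CPM against 19.8 to 30.7), where the test did not call it. Most E16.5 phMPP2s fell in macrophage or mast and in T and NK codes. In mast cell codes Tgfbr1 is called higher after E16.5. Tgfbr3 has 0 UMIs in the first E16.5 library of both gates and 1 UMI in adult mast cells, with wide intervals.

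Whether Tgfbr1 moved differently in mast cells and in the gated cells was tested directly. The sets shared some cells: mast cell codes held 2 of 10 and 6 of 64 E16.5 phMPP2s and 11 of 134 adult phLT-HSCs. The mast cell change exceeded the phMPP2 change by 2.40 on the log2 scale, which did not pass (adjusted p = 0.219, and 0.054 without the cells with a deeper barcode partner, where 0.186% of all genes were called), and the phLT-HSC change by 1.80 (adjusted p = 0.331, and 0.255 without those cells, where 0.0615% were called). With those cells kept, no gene was called in either fit by edgeR (0%), with 798 and 741 genes at an unadjusted p under 0.05.

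Genes with the pattern most like each member over the 135 codes were named by Pearson's r of log2(CPM + 1), as a description without a test, since codes of 1 library share its depth. The 135 codes mix both compartments, so r also reflects the difference between them, and the partners within the 65 stromal codes were mostly other genes. For Tgfb1 they were Serinc3 (0.86), H2-K1 (0.85), which encodes a class I histocompatibility antigen, and Srgn (0.83), the gene of the granule proteoglycan serglycin. For Tgfb2 they were Tcaf1 (0.96), Spats2l (0.95) and Parva (0.95), and for Tgfb3 Thbs2 (0.95), Prrx1 (0.95) and Bicc1 (0.94). Thbs2 encodes the other thrombospondin of that subgroup and Prrx1 a transcription factor of limb mesenchyme. For Tgfbr3 they were Bmp1 (0.83), Cavin1 (0.82) and Cuedc1 (0.82), for Ltbp1 Col5a1 (0.86), Gpc4 (0.85) and Antxr1 (0.85), and for Ltbp3 Sdc2 (0.98), Bgn (0.96) and Col6a2 (0.96). Col5a1, Bgn and Col6a2 encode proteins of the extracellular matrix. For Thbs1 they were Fndc3b (0.90), Scrg1 (0.88) and Mgp (0.88), the last a gene of cartilage matrix. Tgfbr1 and Tgfbr2 had the least alike partners, with Npc1 (0.70), Gpr107 (0.68) and Bmt2 (0.66) for Tgfbr1 and Zfp36l1 (0.78), Zbtb4 (0.77) and Pea15a (0.76) for Tgfbr2. Within the stromal codes alone the first partner was Tgm2 (0.89) for Tgfb1, Akr7a5 (0.73) for Tgfb2, Bicc1 (0.85) for Tgfb3, Rbpj (0.77) for Tgfbr1, Mgat1 (0.83) for Tgfbr2, Hfe (0.79) for Tgfbr3, Abi3bp (0.79) for Ltbp1, Mxra8 (0.88) for Ltbp3 and Fkbp10 (0.88) for Thbs1. Within the 70 HP codes it was Npc1 (0.80) for Tgfbr1 and Zfp36l1 (0.81) for Tgfbr2, as over all codes, and Egfr (0.88) for Tgfb2, which had no UMI in 32 of them.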

How the data were processed

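The authors deposited 1 table of unnormalised counts (UMIs of each gene in each cell) for the mRNA libraries, 1 for the surface antibodies, and a table with the stage, type and population code of each cell. Submitters' processing notes name Cell Ranger 3.1.0, Seurat 3.1.5 and build mm10. Per the study's methods, cells with few UMIs or a high mitochondrial share were removed, and the deposited matrix is used as filtered. Blood cells were also taken out of the stromal data that the study plotted. Whether the deposited matrix had them removed was not tested. No doublet caller was run here.

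Counts were summed per library, code class or antibody gate (centred log ratio above 1, and 0.75 as an alternative) and divided by the total to give CPM. Sums were fitted over all genes with edgeR 4.0.16 (glmQLFit and glmQLFTest, TMM, filterByExpr) in R 4.3.3, with Benjamini-Hochberg adjustment and a threshold of 0.05. Classes needed 20 cells a stromal library, gated and mast cell sets 10 cells a library. The SE of a log2 fold change was its size divided by the square root of the F value. Residual degrees of freedom were 4 for stroma against HP, 2 for adult against perinatal and 3 for E16.5 against later stages. DESeq2 1.42.0, RLE scaling, no filter on low counts, cells of at least 1000 UMIs, other code choices and leaving out each library were alternatives. The joint fits of 2 classes, the fits without cells whose barcode another library holds with at least 10 times the UMIs and other code choices were added after the data were seen. Functions were tested on simulated data. Across the fits 11.1% to 90.5% of simulated 4-fold changes were recovered. For 2-fold changes it was 0.0% to 28.4% of those whose estimate had the right sign, which overstates the rate. All genes of a simulated fit shared a common dispersion. Recovery was lowest in phLT-HSCs (0.0% and 11.1%) and pericyte codes (0.0% and 18.4%) and highest in mast cell codes. A gene that was not called may therefore still have changed. The E16.5 replicate numbers of mRNA and antibody libraries name the same cells.

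The members and the lists of pathway and marker genes were chosen with earlier results of these data known. Genes named in the text are the 9 members, up to 4 called genes of each pathway list by size of change, and the 3 genes with the highest Pearson's r to each member among those of at least 20 CPM in a code; codes are named where a member was highest or lowest. One gene that the rule would name is not reported here. Depth ranged from 13974733 to 194892476 UMIs a library, which limits the precision of low values. The stromal and HP code classes follow the names of the authors' codes, except that the adult code F8 was set apart as PaS MSCs and left out of the fibroblast class. The CF codes were counted as cartilage codes.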

Additional observations from a re-analysis of the deposited data

Results flagged for a closer look

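Of 18 groups of 4 or 5 libraries tested for a library far from the others, 3 held one, where chance gives about 1 in 20: the adult stromal library for Tgfb1 (139 CPM) and Tgfbr2 (109 CPM), and the adult HP library for Ltbp3 (2.60 CPM). Each of these libraries is the only one of its stage and type.

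Of 69 differences between 2 classes in the change over stages, over 9 pairs of classes, 22 were picked out because the test of the difference passed or because the groups compared did not overlap in either class and lay on opposite sides in the 2 classes (all adult or later values above the earlier ones in one class, all below in the other). Fibroblast minus cartilage gave 7, with log2 differences of 1.93 for Tgfb1, -1.22 for Tgfb2, 1.78 for Tgfb3, 1.49 for Tgfbr1, -0.94 for Tgfbr2, 1.82 for Ltbp3 and 2.69 for Thbs1. Fibroblast minus endothelial gave 2.12 for Tgfb1 and 2.11 for Thbs1. With the adult code F8 in and F9 out, Thbs1, Tgfb2 and Tgfbr2 did not pass against cartilage codes (1.16, -0.58 and -0.51), nor did Thbs1 against endothelial codes (0.57). Endothelial minus cartilage, where 12.0% of all genes were called, gave -1.09 for Tgfb2 (adjusted p = 0.0179), 1.29 for Tgfbr1 (adjusted p = 0.0158), -1.09 for Tgfbr2 (adjusted p = 0.00956) and 1.42 for Ltbp3 (adjusted p = 0.00372).

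Pericyte minus cartilage, where 6.48% of all genes were called, gave -1.33 for Tgfb2 (adjusted p = 0.0489) and 1.43 for Ltbp3 (adjusted p = 0.0445), and classes on opposite sides for Tgfb3 (2.26, adjusted p = 0.0693) and Ltbp1 (1.33, adjusted p = 0.124). Pericyte minus fibroblast lay on opposite sides for Tgfbr1 (-1.36, adjusted p = 0.129) and Ltbp1 (1.41, adjusted p = 0.065), and pericyte minus endothelial for Tgfbr1 (-1.10, adjusted p = 0.314). The side of Ltbp1 in fibroblast codes rests on leaving out the adult code F8, which held 145 CPM against 41.6 CPM in the adult codes used. In HP, mast cells lay on the opposite side of phMPP2s (2.40) and of phLT-HSCs (1.80) for Tgfbr1, neither past the threshold. These p-values come from edgeR fits with 2 residual degrees of freedom for stroma and 3 for HP.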

How the results depend on the processing

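No paired analysis was possible because only the E16.5 HP group has more than 1 replicate, and the replicate numbers of the antibody libraries name the same cells. This concerns replicate numbers only: the stage was a covariate for stroma against HP and the library a block in the joint fits. The counts of genes called for stroma against HP and for cartilage codes stayed within 1.5 times under every alternative run. Without the filter on low counts the count of genes called was 1810 in endothelial codes, 934 in pericyte codes, 320 in HP sums, 165 in phLT-HSCs, 457 in phMPP2s and 1659 in mast cells. DESeq2 gave 598, 1763, 2027, 85 and 226 for the first 5 of these. Cells of at least 1000 UMIs gave 130 in HP sums, 6 in phLT-HSCs and 1186 in mast cells, and leaving out cells whose barcode another library holds with at least 10 times the UMIs gave 124, 1 and 1250. The lower CLR level gave 63 in phLT-HSCs, and mast cell codes without those of low UMIs gave 1626. Leaving out 1 library in turn gave 1842 to 5667 for stromal sums, 243 to 1394 for endothelial, 1596 to 5482 for fibroblast and 0 to 5119 for pericyte codes, 0 to 100 for HP sums, 0 to 176 for phLT-HSCs, 0 to 82 for phMPP2s and 28 to 1626 for mast cells. The causes were not tested.

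Fold changes of members turned sign for Ltbp1 in fibroblast codes (0.45 with F8 and without F9), Tgfb2 in pericyte codes (-0.15 with 1 code a stage), Tgfbr2 in phLT-HSCs (-0.01 with RLE, -0.13 with DESeq2, -0.01 with cells of at least 1000 UMIs) and, at the lower CLR level, Tgfb1 (-0.30) and Tgfbr1 (0.10) in phLT-HSCs and Tgfbr2 (0.16) and Thbs1 (1.70) in phMPP2s. None of these was called. Leaving out 1 library turned Tgfbr2 (-0.01 to 0.21) and Tgfb3 (-0.47 to 0.24) in endothelial codes, Thbs1 in cartilage codes (-0.04 to 0.18), Tgfb2 (-1.43 to 0.47), Tgfb1 (-0.25 to 0.45) and Ltbp1 (-0.22 to 1.27) in HP sums, Tgfbr2 in phLT-HSCs (-0.91 to 1.59), Tgfb1 (-0.21 to 1.28) and Tgfbr2 (-0.70 to 0.50) in phMPP2s and Tgfbr2 in mast cells (-0.05 to 0.18).

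Of 81 library levels, 60 moved beyond their counting interval when the CPM of single cells was averaged, and shares of cells with a UMI moved in all 81 on thinning to 1000 UMIs, so no such shares are given. A CLR level of 1.5 left too few E16.5 cells and was not run. Low UMI counts limit the adult mast cell and E16.5 gate values.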
